A study of Saccharomyces cerevisiae with 16 samples.

Results

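The comparison set 3 aerobic samples of *Saccharomyces cerevisiae*, called nitrogen-limited here, against 2 aerobic samples called carbon-limited, 5 of the 16 samples in the series. The nitrogen-limited samples were taken at 27.25, 42.65 and 53.95 h, when the labelled glucose concentration, read here as that of the feed, was 30.97, 47.91 and 60.34 g/L. The carbon-limited samples were taken at 4.1 and 6.85 h, at 5.51 and 8.5 g/L. All 5 came from the strain CEN.PK113-7D, a haploid laboratory strain much used in physiology, grown with oxygen on mineral salts medium in which glucose limited growth at the start and ammonia later. The names follow the glucose concentration, since the labels do not say at which sample the limiting nutrient changed. The aerobic samples at 9.6 and 14.5 h (11.56 and 16.96 g/L) were left out as a transition. The sample at 0 h (1 g/L), which by its glucose belongs to the carbon-limited end, was left out because of measured values. The 5 arrays were thus selected on the log2 values themselves, since in an earlier look at these data more genes passed the test without the 0 h array. Counts made without it therefore describe that choice, and counts from the fit with the 0 h array counted as carbon-limited are given beside those of the gene lists. Nothing in the labels says that the samples came from separate cultures, so the p-values measure only the spread between serial samples, and culture age, glucose and the limiting nutrient cannot be told apart.

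Yeast prefers ammonia and glucose to most other nutrients. When good nitrogen sources are plentiful, nitrogen catabolite repression keeps the GATA activators Gln3 and Gat1 from switching on permeases and enzymes for poorer sources, and the GATA repressors Dal80 and Gzf3 act on the same genes. Glucose likewise represses genes for respiration and for other carbon sources through Mig1 and related repressors, while it induces low-affinity hexose transporters. The TOR and protein kinase A pathways tie ribosome synthesis, autophagy, storage carbohydrates and stress genes to the supply of both nutrients.

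Values are log2 array intensities, with the 3 nitrogen-limited arrays always given in order of time and the 2 carbon-limited arrays likewise. The arrays of each group were close to each other: Pearson's r across genes, which are not independent replicates, was 0.985 to 0.996 among the nitrogen-limited arrays, 0.991 for the carbon-limited pair and 0.847 to 0.857 between the groups. The median gene had a standard deviation of 0.08 over the nitrogen-limited arrays and a difference of 0.12 between the carbon-limited ones, against a median absolute change of 0.45. A change is the nitrogen-limited minus the carbon-limited mean, with ± its standard error from limma. A gene is said to rise or fall where its Benjamini-Hochberg adjusted p over all tested genes was under 0.05. If all arrays of 1 group were under 4 log2 units, only a lower limit of the change is printed, with that group set at 4. A dagger (†) marks a gene that was called, but not when the 0 h array was counted as carbon-limited. In the same way ‡ marks a call lost when the 14.5 h array was added to the nitrogen-limited group, and § one lost when the spread was pooled with that of the anaerobic samples.

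Nitrogen-limited cells had higher transcript levels for peptide, allantoin and urea uptake, for some amino acid permeases and hexose transporters, and for autophagy, storage carbohydrates and mating. They had lower levels for mitochondrial ribosomal proteins, for high-affinity iron uptake, for the use of carbon sources other than glucose and for ribosome assembly. Most calls for autophagy, storage carbohydrates and mitochondrial ribosomal proteins were lost with the 0 h array, as given with each group. Of 5171 genes tested, 3632 passed (70.2%), 2161 higher (41.8%) and 1471 lower (28.4%), and the groups did not overlap for 4243 (82.1%). With so many small changes called, a second rule chosen after seeing the data also asked for a change of at least 2-fold, and 1048 genes met it (20.3%), 676 higher (13.1%) and 372 lower (7.19%). When the 0 h array was counted as carbon-limited, 1057 genes passed (20.4%), 702 higher (13.6%) and 355 lower (6.87%), and all 1057 were among the 3632 with the same direction. The median of all tested genes was 0.12 higher in the nitrogen-limited arrays, and the split moved with the scaling. Calls were 1744 higher and 1904 lower after centring each array on its median, and 1643 higher and 1887 lower after a second quantile normalization.

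**Figure D1:**
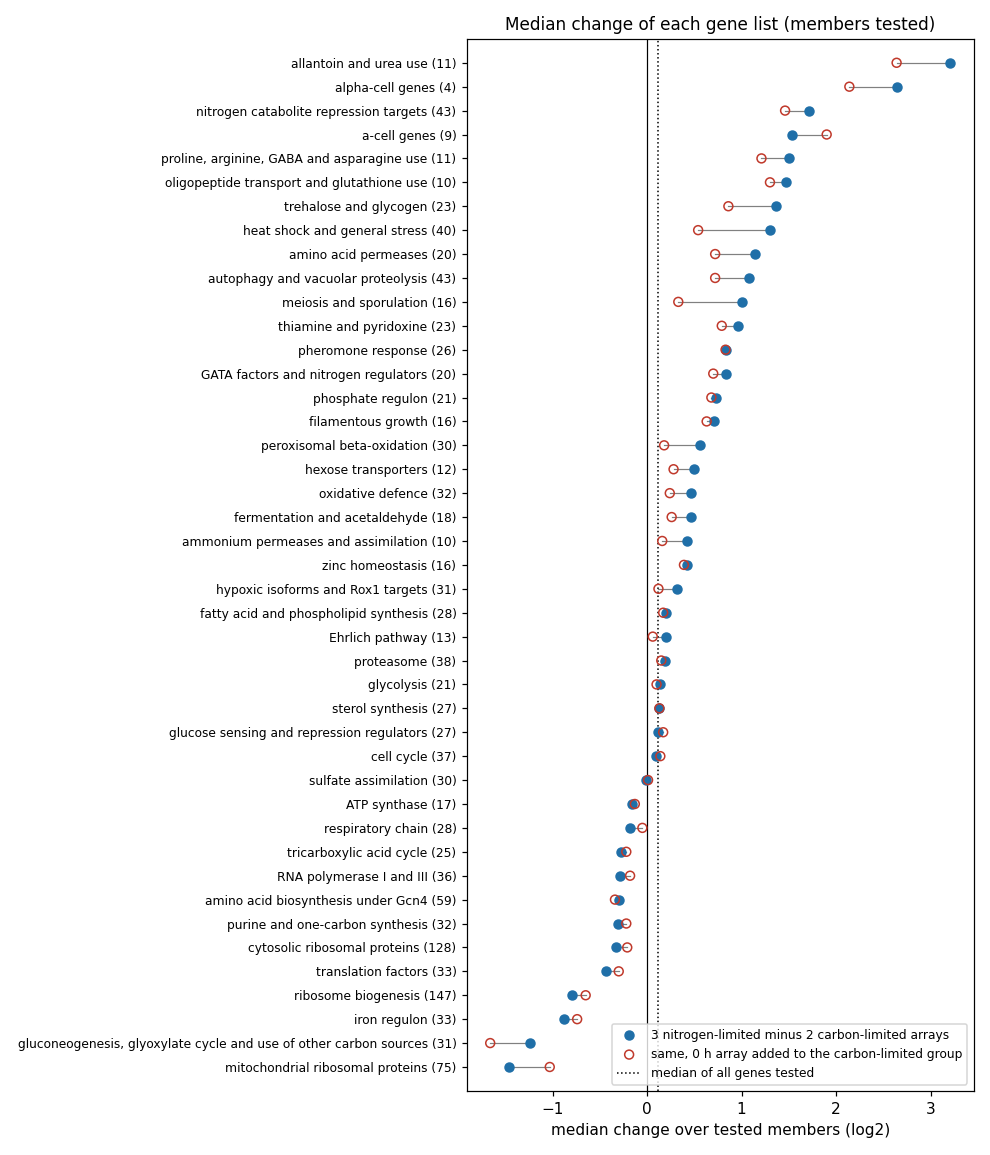
Median change (log2, nitrogen-limited minus carbon-limited) over the tested members of each gene list, with the number tested in parentheses. Filled points use the 5 arrays, open points count the 0 h array as carbon-limited, and the dotted line is the median of all tested genes, 0.12. With the 5 arrays allantoin and urea use lay highest at 3.21 and mitochondrial ribosomal proteins lowest at -1.46. With the 0 h array the lowest was gluconeogenesis and other carbon sources at -1.66, with mitochondrial ribosomal proteins at -1.03.

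Genes for the uptake and use of poor nitrogen sources rose widely. Of 43 targets of nitrogen catabolite repression tested, 39 rose and 2 fell, and by the 2-fold rule 33 were higher (76.7%, against 13.1% of all genes) and 2 lower, and with the 0 h array 30 rose and 1 fell. The change of the median member was 1.71, or 1.59 above the median of all genes. OPT2, of the oligopeptide transporter family, had 15.55, 15.59 and 15.52 log2 units in the nitrogen-limited samples and 2.03 and 2.08 in the carbon-limited ones, a rise of at least 11.56 (adjusted p = 4.54e-09, and 4.18e-07 with the 0 h array). The groups were far apart, and the 0 h value of 2.19 lay with the carbon-limited ones. OPT1, the transporter of glutathione and small peptides, had 12.91, 13.07 and 13.09 against 5.24 and 5.52 and rose by 7.64 ± 0.12. PTR2‡, the transporter of di- and tripeptides, rose by 4.72 ± 0.44, and the 14.5 h array still had 9.62. ECM38, which splits glutathione in the vacuole, rose by 2.05 ± 0.07. Of 10 genes of peptide transport and glutathione use, 8 rose and 0 fell, 5 at least 2-fold higher, and with the 0 h array 6 rose and 0 fell. RNA came from whole cultures, so a change in the share of cells that express a gene and a change per cell cannot be told apart.

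The amino acid permeases split. Of 20 tested, 12 rose and 5 fell, with 11 at least 2-fold higher (55%) and 5 at least 2-fold lower (25%, against 7.19% of all genes), and with the 0 h array 7 rose and 3 fell. DIP5, the permease for glutamate and aspartate, had 13.82, 13.98 and 14.14 in nitrogen-limited samples and 3.33 and 2.36 in carbon-limited ones, at least 9.98 higher. Its 0 h value of 9.22 lay between the groups (adjusted p = 1.7e-06, and 0.0228 with the 0 h array). GAP1, the general amino acid permease, had 15.81, 15.78 and 15.76 against 12.72 and 12.60, a rise of 3.13 ± 0.05 (adjusted p = 5.39e-07, and 0.0144 with the 0 h array). PUT4§, the proline permease, rose by 3.50 ± 0.16, and AGP1, a permease of broad specificity, by 1.92 ± 0.39. Several of the falling permeases are specific for 1 or a few substrates, as are DIP5 and PUT4 among the rising ones. HIP1, for histidine, had 9.02, 8.49 and 8.40 against 11.34 and 11.34 and fell by 2.70 ± 0.19 (adjusted p = 4.8e-05, and 0.00197 with the 0 h array). TAT2†§, for tryptophan and tyrosine, fell by 1.47 ± 0.31, with an adjusted p of 0.0677 with the 0 h array. MMP1‡, for S-methylmethionine, fell by 1.54 ± 0.29, and the permease gene AGP3‡ fell by 1.39 ± 0.24.

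**Figure D2:**
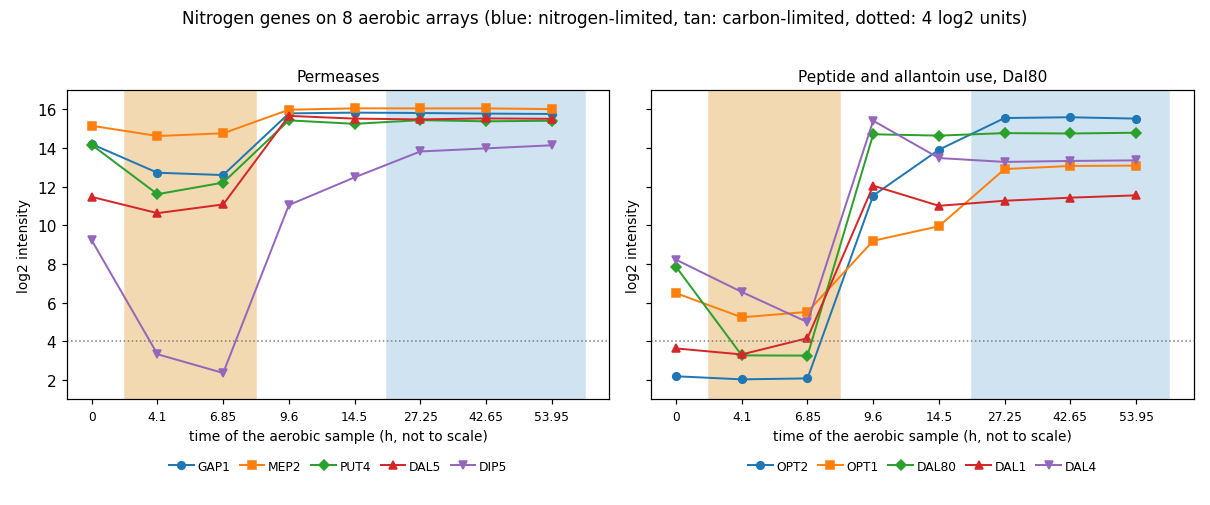
Log2 intensity of 10 nitrogen genes on the 8 aerobic arrays in order of time, with the carbon-limited arrays shaded tan and the nitrogen-limited ones blue, and a dotted line at 4. GAP1, MEP2, PUT4 and DAL5 were at least 15.38 on each nitrogen-limited array, and OPT2, DAL80 and DIP5 were under 4 on both carbon-limited arrays.

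Genes for allantoin, a nitrogen-rich purine breakdown product, and for urea changed by several log2 units. Of 11 in the allantoin and urea list, 9 rose and 1 fell, each at least 2-fold, and with the 0 h array 6 rose and 1 fell. DAL1, the allantoinase, had 11.27, 11.43 and 11.55 against 3.32 and 4.16, a rise of 7.68 ± 0.26 (adjusted p = 0.000161 with the 0 h array). DAL4, the allantoin permease, rose by 7.55 ± 0.40, DAL5, the allantoate permease, by 4.65 ± 0.12 and DUR3, the urea transporter, by 4.85 ± 0.20. Along the pathway DAL2§, the allantoicase, rose by 1.70 ± 0.09, while the value for DAL3, the ureidoglycolate lyase, was 0.17 ± 0.10 and was not called (adjusted p = 0.164), though it was without the 6.85 h array (change 0.32, adjusted p = 0.0133). The member that fell was VHT1, the plasma membrane biotin transporter, and it fell by 2.08 ± 0.13. In the list for proline, arginine, GABA and asparagine 9 rose and 2 fell, and with the 0 h array 4 rose and 1 fell. PUT1, the proline oxidase, had 15.02, 15.01 and 14.94 against 12.16 and 12.08 and rose by 2.88 ± 0.05, and PUT2, the next enzyme, rose by 0.83 ± 0.05. GAD1†, the glutamate decarboxylase, rose by 4.53 ± 0.14, but its 0 h value of 12.22 was as high as the nitrogen-limited ones and the call was lost with it (adjusted p = 0.118).

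Pairs of related enzymes moved apart in this group. The arginase gene CAR1 fell by 1.08 ± 0.16, with 11.08, 10.66 and 10.79 against 12.10 and 11.74, while CAR2†, the ornithine transaminase downstream of it, rose by 1.24 ± 0.15. CAR1 was at 15.78 on the 9.6 h array, above every other aerobic value. ASP1†, the cytosolic asparaginase, fell by 1.09 ± 0.05, and ASP3-1, the cell wall asparaginase measured on a probe set shared with its near-identical copies and so uncertain, had 15.77, 15.76 and 15.80 against 14.32 and 14.22 and rose. BAT2†, the cytosolic branched-chain aminotransferase, rose by 1.88 ± 0.07, and its mitochondrial partner BAT1† fell by 0.34 ± 0.07. The rises of CAR2 and BAT2 and the falls of ASP1 and BAT1 were not called with the 0 h array (adjusted p = 0.759, 0.0669, 0.0678 and 0.126).

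Genes for ammonium uptake changed by fewer log2 units than many of those above. MEP2 lay near the top of the scale, where the maxima of the 5 arrays were 16.44 to 16.52, so it had little room to rise. MEP2, the high-affinity ammonium permease and sensor, had 16.05, 16.05 and 16.01 against 14.62 and 14.76 and rose by 1.35 ± 0.05. MEP3†, a permease of lower affinity, fell by 1.01 ± 0.13, and MEP1, with a value of 0.40 ± 0.16, was not called (adjusted p = 0.0639, or 0.0467 without the 42.65 h array). The 0 h value of MEP3 was 10.27, below all 5 arrays, and its fall was not called with that array (adjusted p = 0.621). Among the assimilating enzymes GLT1, glutamate synthase, rose by 1.00 ± 0.06 and GLN1, glutamine synthetase, by 0.44 ± 0.05. GDH1, the main NADP-dependent glutamate dehydrogenase, had 15.64, 15.69 and 15.67 against 15.66 and 15.63 and was not called (adjusted p = 0.618). Its change was -0.12 after centring on array medians, and 0.10 and called after quantile normalization (adjusted p = 0.0389). Of 20 GATA factors and nitrogen regulators 16 rose and 1 fell, 6 at least 2-fold, and with the 0 h array 11 rose and 1 fell. DAL80 had 14.77, 14.75 and 14.79 against 3.27 and 3.26, a rise of at least 10.77, with 7.85 at 0 h (adjusted p = 5.14e-09, and 0.00716 with the 0 h array). GAT1 rose by 1.53 ± 0.13, and GLN3, whose product is controlled mainly by its location in the cell, had a value of 0.19 ± 0.08 and was not called (adjusted p = 0.0622). With eBayes without intensity trend GLN3 was called (adjusted p = 0.0297). Components of the SEACIT complex, which restrains TOR complex 1, rose: NPR2 by 1.32 ± 0.07 and NPR3 by 0.95 ± 0.08.

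Among hexose transporters the low-affinity carriers HXT3 and HXT1‡ were higher, and so were HXT4 and HXT5†. Of 12 hexose transporters and sensors tested, 6 rose at least 2-fold (50%), 3 fell by less and 3 were not called, and with the 0 h array 3 rose and 1 fell. HXT3, a low-affinity transporter, had 15.46, 15.48 and 15.51 in nitrogen-limited samples and 9.79 and 9.68 in carbon-limited ones, a rise of 5.75 ± 0.06 (adjusted p = 2.95e-08, and 0.00145 with the 0 h array). HXT1, the carrier of lowest affinity, had 5.14, 5.76 and 8.12 against 2.92 and 2.78 and was at least 2.34 higher on average. HXT4 rose by 3.39 ± 0.29. HXT5†, a transporter of slow-growing and starved cells, rose by 3.10 ± 0.91, but its 0 h value was 14.98 and the call was lost with it (adjusted p = 0.712). HXT2†, a transporter of high affinity, fell by 0.97 ± 0.30. HXT7, also of high affinity but on a probe set shared with a near-identical copy and so uncertain, fell by 0.44 ± 0.08. HXT2 was not called without the 4.1 h array (change -0.70, adjusted p = 0.155) or without the 42.65 h array (adjusted p = 0.0585), and HXT5 was not called without the 4.1 h array (adjusted p = 0.117).

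Glucose-induced repressors rose with them. MIG2, a repressor induced by glucose, had 11.60, 11.66 and 11.99 against 4.42 and 3.47 and rose by 7.80 ± 0.29 (adjusted p = 6.17e-06, and 0.000271 with the 0 h array), and MIG3, a related gene, was at least 5.65 higher. MIG1†, the main repressor, rose by 0.63 ± 0.08, with an adjusted p of 0.115 with the 0 h array. STD1, of the glucose-sensing pathway that controls hexose transporters, rose by 2.16 ± 0.15 and GPR1, the glucose receptor upstream of cyclic AMP, by 1.33 ± 0.06. Activators of respiratory carbon metabolism fell, as CAT8 fell by 1.33 ± 0.13, ADR1‡ fell by 1.29 ± 0.26 and SIP4†‡ fell by 1.52 ± 0.33. Of 27 regulators listed, 12 rose (44.4%) and 8 fell (29.6%), near the 41.8% and 28.4% of all genes. By the 2-fold rule 6 were higher (22.2%, against 13.1% of all genes) and 4 lower (14.8%, against 7.19%). With the 0 h array 5 of the regulators rose and 4 fell. The change of the median member, 0.12, equalled that of all genes. Of the hexokinases HXK1§ fell by 0.42 ± 0.06 and HXK2† fell by 0.54 ± 0.06.

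Genes for gluconeogenesis, the glyoxylate cycle and other carbon sources were mostly lower. Of 31 tested, 7 rose, 17 fell and 7 were not called, with 15 at least 2-fold lower (48.4%) and 5 at least 2-fold higher, and with the 0 h array 1 rose and 12 fell. SFC1‡, the mitochondrial succinate-fumarate carrier, had 10.11, 2.56 and 2.52 against 13.43 and 14.04 and fell by 8.68 ± 2.23, the 27.25 h sample lying far above the later ones. Without the 4.1 h or the 6.85 h array its adjusted p was 0.0512 or 0.0646. RGI2, active in respiratory energy metabolism, had 2.40, 2.29 and 2.26 against 9.71 and 11.06, and fell by 6.39 or more. JEN1, the lactate and pyruvate permease, had 10.49, 9.59 and 9.57 against 12.67 and 13.30 and fell by 3.10 ± 0.32 (adjusted p = 0.000225, and 0.0131 with the 0 h array). Invertase, SUC2§, fell by 1.95 ± 0.27, and the isocitrate lyase gene ICL1‡ fell by 2.47 ± 0.48. ADH2†‡, the alcohol dehydrogenase that oxidises ethanol, had 9.62, 8.02 and 7.42 against 10.78 and 12.24 and fell by 3.15 ± 0.69, and its 0 h value of 16.02 lay beyond the carbon-limited ones (adjusted p = 0.00632, and 0.0662 with the 0 h array). FBP1 and PCK1, the enzymes specific to gluconeogenesis, had values of -2.49 ± 1.24 and -0.69 ± 0.80, and neither was called (adjusted p = 0.113 and 0.462). Each differed by over 2 log2 units between the carbon-limited samples, and without the 4.1 h array both were called, at -4.28 and -2.00 (adjusted p = 0.0244 and 0.0362). Without the 6.85 h array PCK1 was at 0.61, and without the 27.25 h array FBP1 was called as well (adjusted p = 0.0479). DAL7, a malate synthase that is also a member of the allantoin list, rose by 3.21 ± 0.15.

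**Figure D3:**
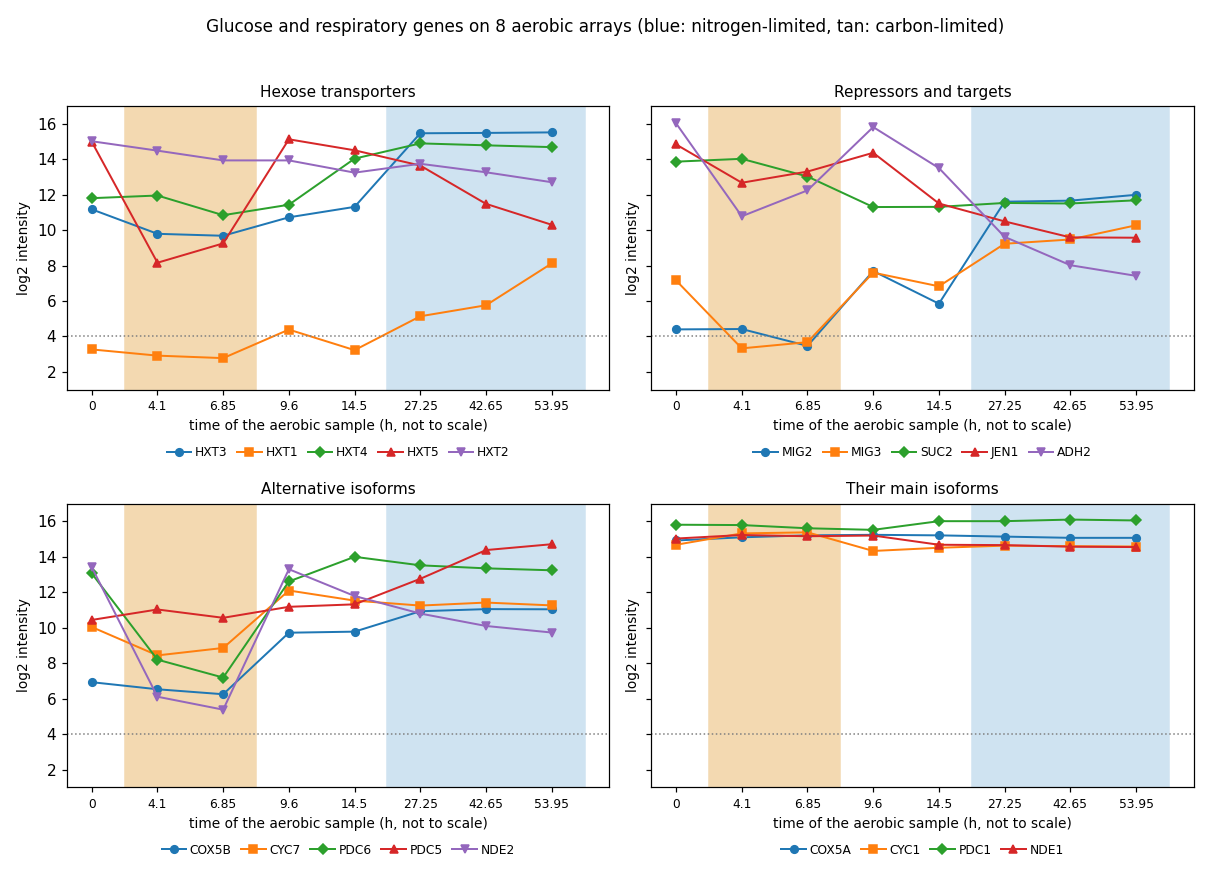
Log2 intensity of glucose and respiratory genes on the 8 aerobic arrays in order of time, carbon-limited arrays tan and nitrogen-limited arrays blue, and a dotted line at 4. HXT3 and MIG2 stood apart in the nitrogen-limited arrays, HXT5, NDE2 and PDC6 were lower at 4.1 and 6.85 h than on any other array, and the main isoforms COX5A, CYC1, PDC1 and NDE1 stayed between 14.33 and 16.10.

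Several pairs of isoforms, picked after their values were seen, differed in how far they moved. The main isoforms lay high on the scale, where the maxima of the 5 arrays were 16.44 to 16.52. They thus had less room to rise than their counterparts, and how far this limited their changes was not tested. COX5B, which encodes subunit Vb of cytochrome c oxidase, the form used when oxygen is scarce, had 10.93, 11.05 and 11.04 in nitrogen-limited samples against 6.53 and 6.25 and rose by 4.62 ± 0.13 (adjusted p = 2.44e-06, and 0.000347 with the 0 h array). Its aerobic counterpart COX5A was at 15.14, 15.07 and 15.07 against 15.10 and 15.21 and was not called (adjusted p = 0.34), at -0.20 with arrays centred on their medians (adjusted p = 0.0175) and 0.01 after a second quantile normalization. CYC7, the minor cytochrome c, rose by 2.66 ± 0.14, and CYC1†§, the main one, fell by 0.75 ± 0.04. NDE2†, an external NADH dehydrogenase, rose by 4.46 ± 0.35 and NDE1§ fell by 0.60 ± 0.05, but NDE2 was at 13.41 at 0 h and lost its call with that array (adjusted p = 0.524). Among pyruvate decarboxylases PDC6† rose by 5.67 ± 0.28 and PDC5‡ by 3.16 ± 0.55, while PDC1, the main one, had 16.01, 16.10 and 16.05 against 15.79 and 15.61. PDC6 was at 13.06 at 0 h and was not called with that array (adjusted p = 0.113), whereas PDC5 was at 10.44 and was (adjusted p = 0.0133). ADH1†, the main fermentative alcohol dehydrogenase, rose by 0.18 ± 0.04, but was at 0.03 and not called with arrays centred on their medians (adjusted p = 0.588).

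In the central respiratory groups more genes fell than rose, mostly by small amounts. Of 25 genes of the tricarboxylic acid cycle 2 rose and 16 fell, of 28 of the respiratory chain 4 rose and 14 fell, and of 17 of the ATP synthase 1 rose and 9 fell. The shares that fell were 64%, 50% and 52.9%, against 28.4% of all genes. Few of these passed the 2-fold rule. In the cycle 0 were higher and 1 lower, CIT3†, a mitochondrial citrate synthase, which fell by 3.13 ± 0.37. In the respiratory chain 3 were higher, among them COX5B, and 1 lower. That was CYB2, the lactate cytochrome c oxidoreductase, which fell by 1.56 ± 0.14. In the ATP synthase 0 passed in either direction. With the 0 h array, 8, 4 and 0 genes of these lists fell and 0, 2 and 0 rose. Of 21 glycolytic genes 12 rose (57.1%, against 41.8% of all genes) and 3 fell, and with the 0 h array 1 rose and 2 fell. Their median change of 0.14 was close to the 0.12 of all genes. At least 2-fold higher were 3 of the glycolytic genes (14.3%, against 13.1% of all genes). These were the phosphoglycerate mutase paralog GPM2†, the kinase gene PFK27 and the glyceraldehyde dehydrogenase isoform TDH1†, by 2.94 ± 0.13, 2.46 ± 0.38 and 2.06 ± 0.15. Of 31 hypoxic genes 17 rose (54.8%) and 8 fell (25.8%), against 41.8% and 28.4% of all genes. At least 2-fold higher were 7 (22.6%, against 13.1%). With the 0 h array 5 rose and 2 fell, with a median change of 0.12, against 0.11 for all genes. FET4, the low-affinity iron transporter repressed by oxygen through Rox1, had 10.18, 10.71 and 11.02 against 5.15 and 2.52 and rose by 6.80 ± 0.72. The seripauperin genes PAU2† and PAU4‡, on shared probe sets and so uncertain, were higher too, by 5.34 ± 0.45 and by at least 2.35. AAC3, an ADP/ATP carrier of anaerobic cells, was under 4 on every nitrogen-limited array and was not called (adjusted p = 0.0687). It was called lower with no filter and with eBayes without intensity trend (adjusted p = 0.00172 and 0.00242). The same held after a second quantile normalization and after centring on array medians (adjusted p = 0.00432 and 0.0408).

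Mitochondrial ribosomal protein genes fell together. Of 75 tested, 74 fell and 1 rose, and 67 were at least 2-fold lower (89.3%, against 7.19% of all genes), with a median change of -1.46. The list mean was 11.71, 11.75 and 11.78 log2 units in the nitrogen-limited samples and 13.26 and 13.12 in the carbon-limited ones. At 0 h it was 11.94, with the nitrogen-limited samples, and with that array counted as carbon-limited 10 fell and 0 rose. MRPL20†, of the large subunit, had 10.77, 10.94 and 11.04 against 13.09 and 13.11, and fell by 2.18 ± 0.09 (adjusted p = 8.94e-06, and 0.129 with the 0 h array). RSM26†, of the small subunit, fell by 2.14 ± 0.08.

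Cytosolic ribosome genes fell by smaller amounts. Of 147 ribosome biogenesis genes, whose products process and assemble ribosomal RNA and proteins, 132 fell and 4 rose. By the 2-fold rule 39 were lower (26.5%), and with the 0 h array 77 fell and 1 rose. The list mean was 11.09, 11.16 and 11.16 against 11.87 and 11.95, with 11.50 at 0 h between the groups and 6.53 at 9.6 h far below all of them. NOP13, a nucleolar protein gene, had 10.83, 10.91 and 10.92 against 12.59 and 12.88 and fell by 1.85 ± 0.10, and MAK16 fell by 1.84 ± 0.12. Of 128 cytosolic ribosomal protein genes 115 fell and 0 rose, but only 2 by at least 2-fold, RPL9A and, on a shared probe set, RPL41A†, and with the 0 h array 3 fell. Their median change was -0.33, or -0.45 relative to all genes. Among RNA polymerase I and III genes RPA49 fell by 1.40 ± 0.09 and RRN11† fell by 1.54 ± 0.16, and MAF1, the repressor of polymerase III, rose by 1.03 ± 0.08. Among 59 Gcn4-dependent genes of amino acid synthesis, 42 fell and 4 rose, 7 at least 2-fold lower, and 24 fell with the 0 h array. LEU9, of leucine synthesis, fell by 1.95 ± 0.09 and HOM3, aspartate kinase, fell by 1.24 ± 0.06, while GCN4† itself rose by 0.38 ± 0.05.

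Without the 0 h array, autophagy and vacuolar proteolysis genes rose as a group. Of 43 tested, 39 rose and 0 fell, and 25 were at least 2-fold higher (58.1%), with a median change of 1.08. With the 0 h array 7 of the 43 rose and 0 fell, in a fit that called 13.6% of all genes higher and 6.87% lower. ATG8†, the ubiquitin-like protein that marks autophagosomes, had 13.26, 13.38 and 13.38 against 11.50 and 11.49 and rose by 1.85 ± 0.06, but at 0 h it was at 13.13 and was not called with that array (adjusted p = 0.0932). ATG14†, of the kinase complex that starts autophagosome formation, rose by 3.47 ± 0.15, and ATG32, the receptor for mitochondria, by 2.23 ± 0.08. CPS1, vacuolar carboxypeptidase S, had 15.36, 15.41 and 15.41 against 12.92 and 12.95 and rose by 2.46 ± 0.05, also with the 0 h array (adjusted p = 0.000441). APE1, an aminopeptidase delivered to the vacuole, rose by 1.89 ± 0.08 and PEP4, the proteinase that activates vacuolar hydrolases, by 0.60 ± 0.04. Both were called with the 0 h array (adjusted p = 0.00448 and 0.0417). Of 38 proteasome genes 21 rose and 1 fell, 0 of them by 2-fold, and with the 0 h array 3 rose and 0 fell.

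Storage carbohydrate and stress genes were higher too. Of 23 genes of trehalose and glycogen 19 rose and 2 fell, 14 at least 2-fold higher (60.9%). PIG2† and GAC1, which target protein phosphatase 1 to glycogen synthase or resemble such subunits, rose by 3.30 ± 0.12 and 2.99 ± 0.12. TSL1†, of the trehalose synthase complex, had 13.60, 13.42 and 13.40 against 11.22 and 11.56 and rose by 2.08 ± 0.12. Of 40 heat shock and general stress genes 29 rose and 7 fell, 21 at least 2-fold higher (52.5%). HSP12†, a membrane-stabilising stress protein, had 15.68, 15.57 and 15.40 against 11.48 and 12.14, and CTT1†, the cytosolic catalase, had 10.86, 9.77 and 9.49 against 5.39 and 4.95. Their rises were 3.74 ± 0.19 and 4.87 ± 0.40. At 0 h TSL1, HSP12 and CTT1 were at 13.71, 16.06 and 13.17, above all 5 arrays, and none was called with that array (adjusted p = 0.183, 0.191 and 0.48). With the 0 h array 4 of 23 rose and 1 fell in the storage list, and 4 of 40 rose and 3 fell in the stress list. That fit called 13.6% of all genes higher and 6.87% lower. Of 30 genes of peroxisomal beta-oxidation 18 rose and 4 fell, but with the 0 h array 1 rose and 3 fell. POT1†, the thiolase, rose by 3.68 ± 0.45 and was at 13.96 at 0 h.

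High-affinity iron uptake was lower in the nitrogen-limited samples. Of 33 genes of the iron regulon 22 fell, 5 rose and 6 were not called, with 15 at least 2-fold lower (45.5%), and with the 0 h array 19 fell and 2 rose. FIT2 and FIT3 encode mannoproteins of the cell wall that hold iron-siderophore complexes. FIT2 had 8.92, 8.44 and 8.51 against 14.11 and 14.35 and fell by 5.61 ± 0.16 (adjusted p = 2.8e-06, and 0.000446 with the 0 h array). FIT3 had 11.61, 11.46 and 11.71 against 15.41 and 15.42 and fell by 3.82 ± 0.08. The ferroxidase gene FET3 had 11.02, 10.24 and 11.03 against 14.89 and 14.55 and fell by 3.96 ± 0.25, and its permease partner FTR1 fell by 1.57 ± 0.09. Siderophore transporters fell as well, as ARN1 fell by 3.53 ± 0.15, SIT1 fell by 2.53 ± 0.08 and ENB1 fell by 3.04 ± 0.23. The metalloreductase family members FRE5 and FRE7 were under 4 on each nitrogen-limited array. FRE5 fell by 4.74 or more and FRE7 fell by 3.86 or more. TIS11, an RNA-binding protein that lowers transcripts of iron-using proteins, fell by 4.38 ± 0.49. FET4, named above among the hypoxic genes, moved the other way.

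Phosphate and zinc genes changed in part. Of 21 genes of the phosphate regulon 17 rose and 2 fell, 5 at least 2-fold higher (23.8%), and with the 0 h array 11 rose and 0 fell. PHO84†‡, the high-affinity phosphate transporter, had 9.79, 9.98 and 9.28 against 8.19 and 7.37 and rose by 1.91 ± 0.30. Its values at 9.6 and 14.5 h were 3.11 and 3.18, under all others, and with the 0 h array it was not called (adjusted p = 0.144). With the 14.5 h array added to the nitrogen-limited group its change was 0.28 (adjusted p = 0.906). PHM8†, a phosphatase gene of this regulon, was at least 5.81 higher, and PHO89†, the sodium-phosphate transporter, fell by 0.96 ± 0.11. The zinc transporter gene ZRT1† rose by 2.41 ± 0.09, and IZH4‡, whose membrane protein takes part in zinc homeostasis, had 4.21, 3.17 and 3.32 against 6.38 and 8.60 and fell by 3.92 ± 0.69.

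**Figure D4:**
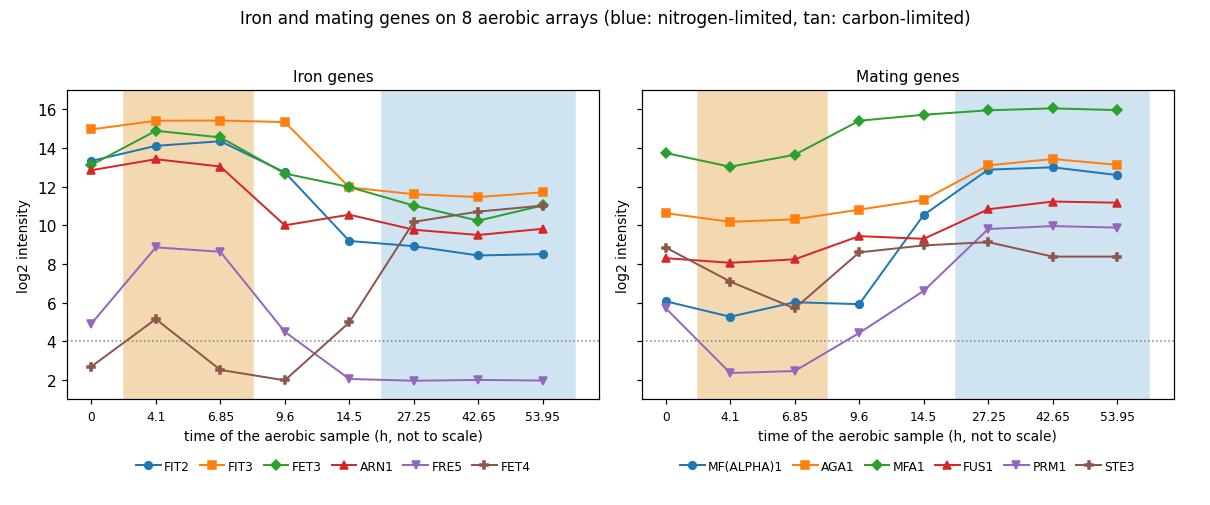
Log2 intensity of 6 iron genes and 6 mating genes on the 8 aerobic arrays in order of time, carbon-limited arrays tan and nitrogen-limited arrays blue, and a dotted line at 4. FIT2, FIT3, FET3, ARN1 and FRE5 were lower and FET4 higher in each nitrogen-limited array than in either carbon-limited one. All 6 mating genes were higher in each nitrogen-limited array, and STE3 at 0 h, at 8.85, was level with them.

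Mating genes of the a-cell list and of the alpha-cell list rose. All 9 a-cell genes and all 4 alpha-cell genes tested rose, and with the 0 h array 8 and 3 did. The a-cell genes were well above 4 in both groups. MFA1, the a-factor gene, had 15.95, 16.05 and 15.96 against 13.03 and 13.65 and rose by 2.65 ± 0.17, and STE2†, the alpha-factor receptor of a cells, had 14.94, 15.10 and 15.11 against 14.14 and 14.40. The alpha-cell gene MF(ALPHA)1, the alpha-factor precursor, had 12.88, 13.00 and 12.60 against 5.27 and 6.02 and rose by 7.18 ± 0.23 (adjusted p = 4.43e-06, and 0.000207 with the 0 h array). STE3†, the a-factor receptor of alpha cells, had 9.13, 8.38 and 8.38 against 7.09 and 5.70, with an adjusted p of 0.225 with the 0 h array and of 0.058 after a second quantile normalization. The mean of the a-cell list ran over 13.65, 13.87 and 13.81 in nitrogen-limited samples and 11.97 and 12.09 in carbon-limited ones, and that of the alpha-cell list over 10.02, 9.96 and 9.78 against 6.74 and 5.99. The part of a change in cell type in these rises was not tested. Of 26 pheromone response genes 19 rose and 3 fell, 11 at least 2-fold higher (42.3%), and with the 0 h array 15 rose and 2 fell. PRM1, which acts in the fusion of mating cells, had 9.81, 9.96 and 9.88 against 2.36 and 2.46, at least 5.88 higher, and FUS1, also of cell fusion, rose by 2.93 ± 0.15. PRM5, a pheromone-regulated gene also linked to cell wall stress, fell by 2.51 ± 0.43.

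Several of the largest changes were in genes not yet described. AQY1†, an aquaporin, had 12.11, 11.35 and 10.63 against 2.00 and 2.55, at least 7.36 higher, but was at 9.52 at 0 h (adjusted p = 0.0678 with that array). PHM7† had 12.62, 12.17 and 11.87 against 2.36 and 4.08, and it was at 13.28 at 0 h. RSB1‡, a sphingoid base transporter listed among the nitrogen-regulated genes, had 9.33, 10.09 and 10.58 against 1.99 and 1.98, and its value at 14.5 h was 2.07. HMS1, a regulator linked to pseudohyphal growth, was at least 5.78 higher (adjusted p = 0.0001 with the 0 h array). YIG1, linked to glycerol metabolism, had 2.14, 2.05 and 2.28 against 9.78 and 11.35 and fell by 6.57 or more. ATF2†, an alcohol acetyltransferase, fell by 3.93 ± 0.44, and EFM6†, a methyltransferase for a translation elongation factor, fell by 3.39 or more. At 0 h they were at 6.16 and 3.61, and they were not called with that array (adjusted p = 0.235 and 0.0957).

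The 3 aerobic arrays outside the comparison are described without a test. The 0 h array is not independent of it, since the comparison leaves it out for its values and the genes counted here were called without it, so its shares are a description that supports nothing else. At 0 h, where glucose was lowest, 456 of the 676 genes at least 2-fold higher (67.5%) and 257 of the 372 at least 2-fold lower (69.1%) had values nearer the nitrogen-limited than the carbon-limited mean. For 227 of the 676 the 0 h value lay beyond the nitrogen-limited mean. All 14 storage carbohydrate genes, all 9 peroxisomal genes, 66 of 67 mitochondrial ribosomal protein genes, 23 of 25 autophagy genes and 19 of 21 stress genes were nearer the nitrogen-limited samples at 0 h. Of the others, 10 of 33 nitrogen catabolite repression targets, 0 of 5 peptide transport genes, 2 of 11 pheromone response genes, 0 of 6 a-cell genes and 0 of 15 lower carbon source genes were. For 13 of those 15 carbon source genes the 0 h value lay beyond the carbon-limited mean. The iron genes lay between, with 5 of 15.

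**Figure D5:**
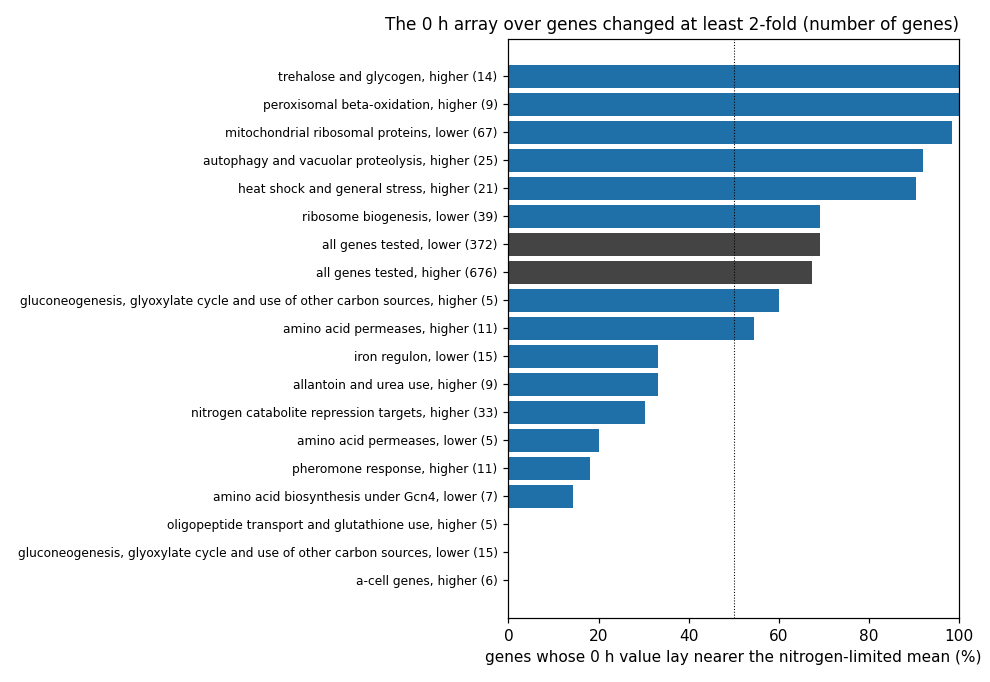
Share (percent) of the genes called and changed at least 2-fold whose 0 h value lay nearer the nitrogen-limited than the carbon-limited mean, by gene list and direction, with the number of genes in parentheses and all tested genes in dark bars. Only selected lists with at least 5 such genes in a direction are drawn. The dotted line marks 50%. The bar for trehalose and glycogen reaches 100%, that for nitrogen catabolite repression targets 30.3%, and 3 of the lists shown are at 0%.

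At the other edge, the 14.5 h array lay close to the nitrogen-limited samples and the 9.6 h array stood apart from both groups. At 14.5 h the value of 570 of the 676 higher genes and 336 of the 372 lower genes lay nearer the nitrogen-limited mean. At 9.6 h 594 and 306 genes did, but 430 and 257 of them lay beyond that mean, and all 39 lower ribosome biogenesis genes did. Of the 33 nitrogen catabolite repression targets 31 lay nearer the nitrogen-limited mean at 9.6 h, 24 of them beyond it. HXT3 changed later in the series than DAL80. On the sample just inside the nitrogen-limited group, at 27.25 h, HXT3 was at 15.46 and DAL80 at 14.77, and on the one just outside it, at 14.5 h, they were at 11.31 and 14.64. Just inside the carbon-limited group, at 6.85 h, they were at 9.68 and 3.26, and just outside it, at 9.6 h, at 10.72 and 14.71. Mean Pearson's r across genes with the nitrogen-limited arrays was 0.954 for the 14.5 h array, 0.764 for the 9.6 h array and 0.865 for the 0 h array, and with the carbon-limited arrays it was 0.862, 0.618 and 0.850.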

How the data were processed

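Total RNA from 16 samples of 1 strain was hybridized as biotin-labelled cRNA to single-channel Affymetrix arrays. The deposited values are log2 intensities per probe set, and the submitters' processing notes name GCRMA, which corrects background, normalizes and summarizes probes. Neither a version nor the set of arrays normalized jointly is stated in those sources, and the value range was taken to mean base 2.

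A single gene symbol was paired with 5498 of the 5716 probe sets and none with the other 218, which were dropped, and no probe set had several. When a gene had more than 1 probe set (47 genes), the brightest by mean over the 16 arrays stood for it. Of 5449 genes, 5171 reached 4 log2 units on at least 2 of the 5 arrays and were tested and 278 were not, and 102 of those tested had a probe set that other sequences may share. The nitrogen-limited and carbon-limited arrays were compared with limma 3.58.1 in R 4.3.3 (lmFit and trended eBayes on 3 residual degrees of freedom), with Benjamini-Hochberg adjustment over all tested genes and a threshold of 0.05. A simulation with 200 changed genes among 5160 recovered 85% of those changed by 1 log2 unit and 99% of those changed by 2, with 9 false calls. Its noise was independent between arrays, unlike that of serial samples. The precision rests on 5 arrays.

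The samples compared and the 43 gene lists, some of which share members, were chosen with earlier results of these data known. Named genes are the 12 largest rises and falls among called genes with no overlap between groups and no shared probe set, called or strongly changed members of the lists, and a fixed set of marker genes, not all of them named. Alternatives were no filter, a filter at 6 log2 units, a second quantile normalization, averaged probe sets, centring on array medians, other eBayes settings, adding the 0 h or 14.5 h array, pooling the spread with anaerobic samples, and leaving out each array.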

Additional observations from a re-analysis of the deposited data

How the results depend on the processing

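The sample that decided most was the 0 h array. With it counted as carbon-limited, 1057 genes were called, 702 higher and 355 lower, and 245 were at least 2-fold higher and 123 at least 2-fold lower. The cause was not tested. Of the other alternatives, none moved a count of all calls by over 1.5 times, and leaving out 1 array gave 3221 to 3496 calls. Without 1 carbon-limited array the lone sample is assumed to vary like the other group. Centring and quantile normalization made 47.8% and 46.5% of calls higher, against 59.5%, and the number of ribosome biogenesis genes at least 2-fold lower was 61 after centring, against 39. Sign changes of named genes not called here were those of COX5A (0.01 after quantile normalization, 0.02 with the 0 h array), GDH1 (-0.12 after centring), GLN3 (-0.03 after quantile normalization) and PCK1 (0.18 with the 14.5 h array, and -2.00 to 0.61 when leaving out 1 array). Calls of named genes were also lost with the 14.5 h array added to the nitrogen-limited group, with adjusted p of 0.0544 (PDC5) to 0.906 (PHO84) and also for ADH2, ADR1, AGP3, HXT1, ICL1, IZH4, MMP1, PAU4, PTR2, RSB1, SFC1 and SIP4. They were lost with the spread pooled with the anaerobic samples for CYC1, DAL2, HXK1, NDE1, PUT4, SUC2 and TAT2 (adjusted p = 0.0534 to 0.283), with robust eBayes for HXT2, HXT5 and SFC1 (0.0538 to 0.0752), and after quantile normalization for STE3 and centring for ADH1. The medians of the glucose regulator, glycolysis, cell cycle and sterol lists were within 0.15 of 0 and changed sign with the scaling. No paired analysis was possible because the labels give no replicate numbers. Signals under 4 log2 units limit what was measured: among the genes at least 2-fold changed, 45 had both carbon-limited arrays and 13 all nitrogen-limited arrays there. With changes set at those bounds, 666 genes were at least 2-fold higher and 367 lower.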

Other observations

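Thiamine and pyridoxine genes were mostly higher in the nitrogen-limited samples. Of 23 tested, 16 rose and 2 fell, 11 at least 2-fold higher (47.8%, against 13.1% of all genes), and with the 0 h array counted as carbon-limited 7 rose and 2 fell. THI7, the thiamine transporter, had 12.96, 13.30 and 13.47 in nitrogen-limited samples against 11.21 and 11.24 in carbon-limited ones and rose by 2.02 ± 0.14 (limma, adjusted p = 5.03e-05, and 0.0188 with the 0 h array). THI2†, the activator of thiamine genes, rose by 2.43 ± 0.23, and SNZ3, of pyridoxine synthesis and on a shared probe set, fell by 1.97 ± 0.21. PDC5, described above, is a member of this list.

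The largest change among sterol genes was that of ARE2, a sterol acyltransferase, which rose by 2.98 ± 0.13 (0.0263 with the 0 h array as adjusted p in limma). Of 27 listed 13 rose and 1 fell (4 and 0 with the 0 h array). By the 2-fold rule 3 were higher (11.1%, against 13.1% of all genes) and 0 lower. Of 32 genes of purine and one-carbon synthesis 21 fell and 6 rose (5 and 2 with the 0 h array), and IMD4, an IMP dehydrogenase, had 9.41, 9.83 and 10.16 against 12.08 and 12.39 and fell by 2.43 ± 0.22. Of 37 cell cycle genes 14 rose (37.8%, against 41.8% of all genes) and 5 fell (6 and 0 with the 0 h array). Changes in this list ran from -1.21 to 1.89, with 1 gene higher and 1 lower by the 2-fold rule. The lower one was the mitotic cyclin gene CLB2†, which fell by 1.21 ± 0.11, with 9.52 at 0 h. Of 16 genes of filamentous growth 9 rose and 3 fell (5 and 0 with the 0 h array), with 8 higher and 2 lower by at least 2-fold. Of 30 sulfate assimilation genes 11 rose and 10 fell (2 and 2 with the 0 h array), with a median change of -0.01. These were 36.7% and 33.3%, against 41.8% and 28.4% of all genes. Of 16 meiosis and sporulation genes 9 rose and 1 fell, and with the 0 h array 1 rose and 0 fell. Their median of 1.00, or 0.79 with genes under 4 in 1 group set at their bound, became -0.10 after a second quantile normalization.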
